A study of Homo sapiens with 6 samples.

Results

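The Notch genes described here were 3 receptors (NOTCH1, NOTCH2 and NOTCH3), 3 ligands (JAG1, JAG2 and DLL1) and 4 target genes (HES1, HES4, HEY1 and NRARP). They were taken by Ensembl identifier from an RNA-seq count table of 27745 genes, and all 10 were found and passed the filter on low counts. The cells were MDA-MB-231, a human triple-negative breast cancer cell line. They had been infected with lentivirus, which for the knockdown groups carried a short hairpin RNA (shRNA) in the pLKO.1 vector. The groups were sh-TRC, the control, and sh-MIR100HG-1 and sh-MIR100HG-2, which are different hairpins against MIR100HG, a long non-coding RNA. Each of the 3 groups had 2 biological replicates, called CTR1 and CTR2, KD1-1 and KD1-2, and KD2-1 and KD2-2. Values are given with replicate 1 first in each group. The study compared the knockdown groups with the control to ask which genes depend on MIR100HG. All 6 libraries came from a single line. The paper identifies the control sh-TRC by an Addgene plasmid number and does not print its sequence. Each MIR100HG hairpin may differ from the control in more than the target.

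Notch is a cell contact pathway. A ligand of the Jagged or Delta family on a neighbouring cell pulls on a Notch receptor, which is then cut by an ADAM protease and by gamma-secretase. The freed intracellular part enters the nucleus, joins the DNA-binding protein RBPJ and a Mastermind coactivator, and switches on genes such as the HES and HEY repressors. In breast cancer, JAG1 and the NOTCH receptors have been studied as regulators of growth and of stem-like cells. An RNA level of a receptor or ligand does not measure signalling, since the receptor acts only after it has been cut.

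The RBPJ core motif TGGGAA was searched for on both strands in the RefSeq promoters of these genes (GRCh38.p14), in the 250 bases before the start site. A promoter was given for 8 of the 10 genes and not for DLL1 and HEY1. The motif occurred in HES1 and HES4, where 21.1% of all promoters searched held it. It occurred in none of the other 6 promoters, namely those of NOTCH1, NOTCH2, NOTCH3, JAG1, JAG2 and NRARP. The last 120 bases before the start of HES1 (chr3:194136028-194136147, plus strand) and HES4 (chr1:1000098-1000217, minus strand) are printed 5′ to 3′ along the gene, with each TGGGAA in capitals.
HES1: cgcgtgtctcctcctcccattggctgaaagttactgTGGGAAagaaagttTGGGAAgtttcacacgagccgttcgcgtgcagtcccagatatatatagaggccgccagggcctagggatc
HES4: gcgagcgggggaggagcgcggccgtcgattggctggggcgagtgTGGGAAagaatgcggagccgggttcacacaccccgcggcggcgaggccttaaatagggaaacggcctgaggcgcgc

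HES1 held 2 matches, whose first bases lay 84 and 70 bases before the start. HES4 held 1 match, 76 bases before the start. Both promoters also held the longer form GTGGGAA, which includes the core, 85 bases before the start in HES1 and 77 in HES4. Of 27305 promoters searched in the same window, 21.1% held TGGGAA at least once and 2.92% at least 2 times, and 5.46% held GTGGGAA. A match of letters is a description of the sequence, and binding was not measured here.

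Total counts ranged from 43804736 to 64588388 per library. Levels are given as CPM, counts scaled to a common library size, after TMM normalization, which corrects for library size and composition. MIR100HG, the target of the hairpins, was at 41.9 and 58.5 CPM in the controls, 15.2 and 13.2 with sh-MIR100HG-1, and 16.6 and 10.4 with sh-MIR100HG-2. All 4 knockdown libraries were below both controls. The log2 fold change (log2FC) of the mean of both hairpins against sh-TRC was -1.86 ± 0.25 (SE), with an adjusted p of 0.381 by edgeR's quasi-likelihood test and 5.09e-07 by DESeq2. The summed level of 6 genes taken as markers of this line (VIM, CD44, CAV1, AXL, MSN and SPARC, of which SPARC was low) was 5142 to 6635 CPM. Of the hormone receptor and HER2 genes, PGR, the progesterone receptor gene, was at or near 0 in all libraries. ESR1, the oestrogen receptor gene, was at 0.12 to 2.79 CPM, and ERBB2, the HER2 gene, was at 71.6 to 116 CPM. In bulk RNA, fewer cells of a kind and less RNA per cell cannot be told apart.

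Before any comparison, the replicates of the control differed for several of these genes. HES1 was 14.7-fold higher in CTR1 than in CTR2, the 22nd largest difference between these replicates of 15372 genes tested. NOTCH3 was 3.87-fold higher in CTR2 than in CTR1 and 10.6-fold higher in KD1-1 than in KD1-2. JAG1 differed by 1.14-fold, 1.12-fold and 1.2-fold within the 3 groups. For comparison, the median absolute difference between replicates over all genes was 0.33, 0.31 and 0.38 on the log2 scale in sh-TRC, sh-MIR100HG-1 and sh-MIR100HG-2.

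**Figure D1:**
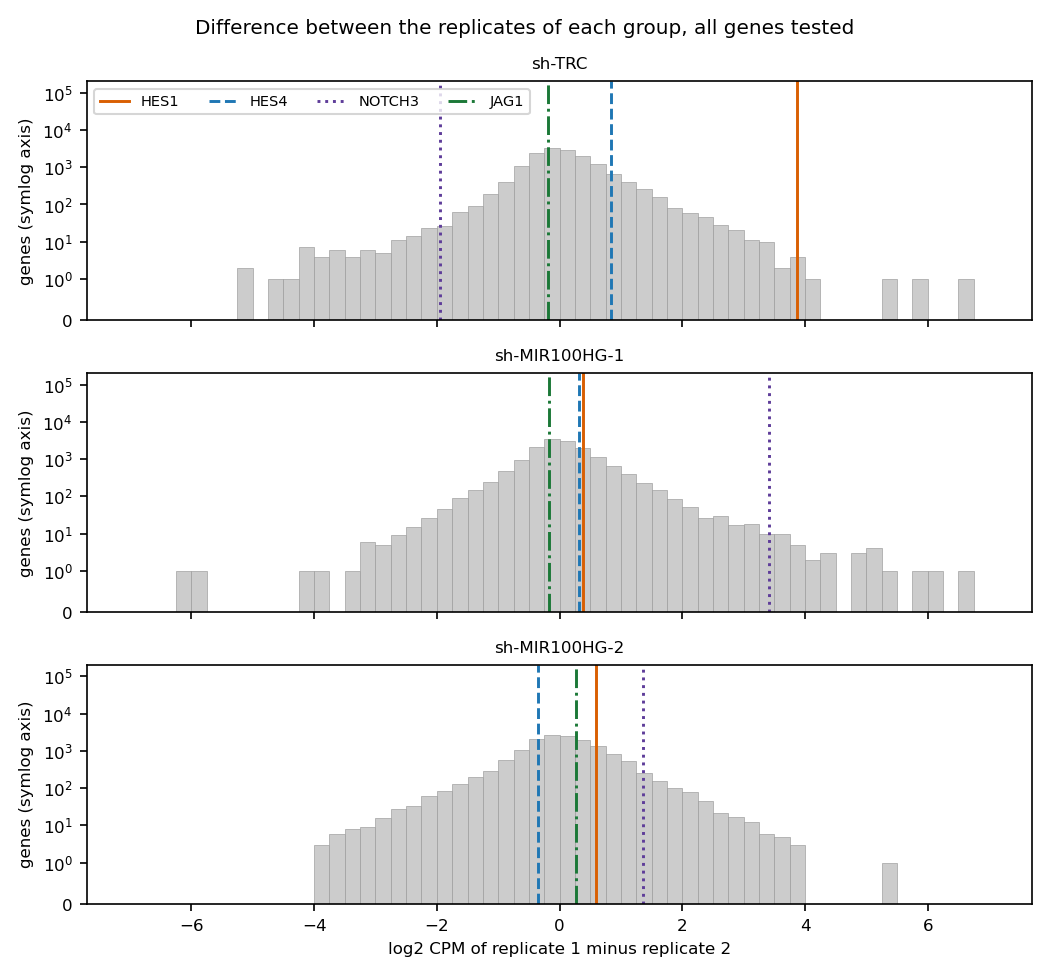
Difference in log2 CPM between replicate 1 and replicate 2 of each group for all 15372 genes tested (grey bars, number of genes on a symmetric log axis), with HES1, HES4, NOTCH3 and JAG1 as coloured lines. HES1 lies at 3.87 in the control and at 0.39 and 0.59 in the knockdown groups, and NOTCH3 lies at -1.95, 3.41 and 1.35.

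Levels between genes were compared as CPM per kilobase of exon. The order of the means over 6 libraries was HES1, NOTCH2, JAG1, HES4, NOTCH1, JAG2, NRARP, NOTCH3, HEY1 and DLL1. HES1 stood first with a mean of 64.1 CPM per kilobase, but ran from 3.74 to 139.8. NOTCH2 was at 38.4 (32.4 to 44.03), JAG1 at 33.3 (26.3 to 44.1) and HES4 at 25.5 (11.1 to 38.8). The ranges of these 4 neighbours overlapped. NOTCH1 followed at 9.24, below the range of HES4, and JAG2 at 1.91, below the range of NOTCH1. NRARP was at 1.06, below the range of JAG2. NOTCH3 at 0.358, HEY1 at 0.175 and DLL1 at 0.130 ended the order, and their ranges overlapped. These cells thus held much NOTCH2 and JAG1 RNA and little NOTCH3, HEY1 and DLL1 RNA.

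NOTCH2 made up most of the receptor RNA. On the length-scaled levels, its share of the sum of NOTCH1, NOTCH2 and NOTCH3 was 81.2% and 76.4% in the controls, 78.6% and 83.6% with sh-MIR100HG-1, and 80.5% and 80.3% with sh-MIR100HG-2. NOTCH1 gave 16.2% to 21.7% and NOTCH3 0.127% to 1.92%. The mean share over the 4 knockdown libraries differed from that over the 2 controls by 1.92 percentage points for NOTCH2, -1.14 for NOTCH1 and -0.78 for NOTCH3. The 2-sided exact permutation test gave p = 0.533, 0.533 and 0.267. These p rest on the 15 possible splits of 4 against 2 libraries, which allow no p under 0.05. Adjusted by Benjamini-Hochberg over these 3 tests, all 3 were 0.533. The summed receptor level was 39.8 to 54.7 CPM per kilobase.

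**Figure D2:**
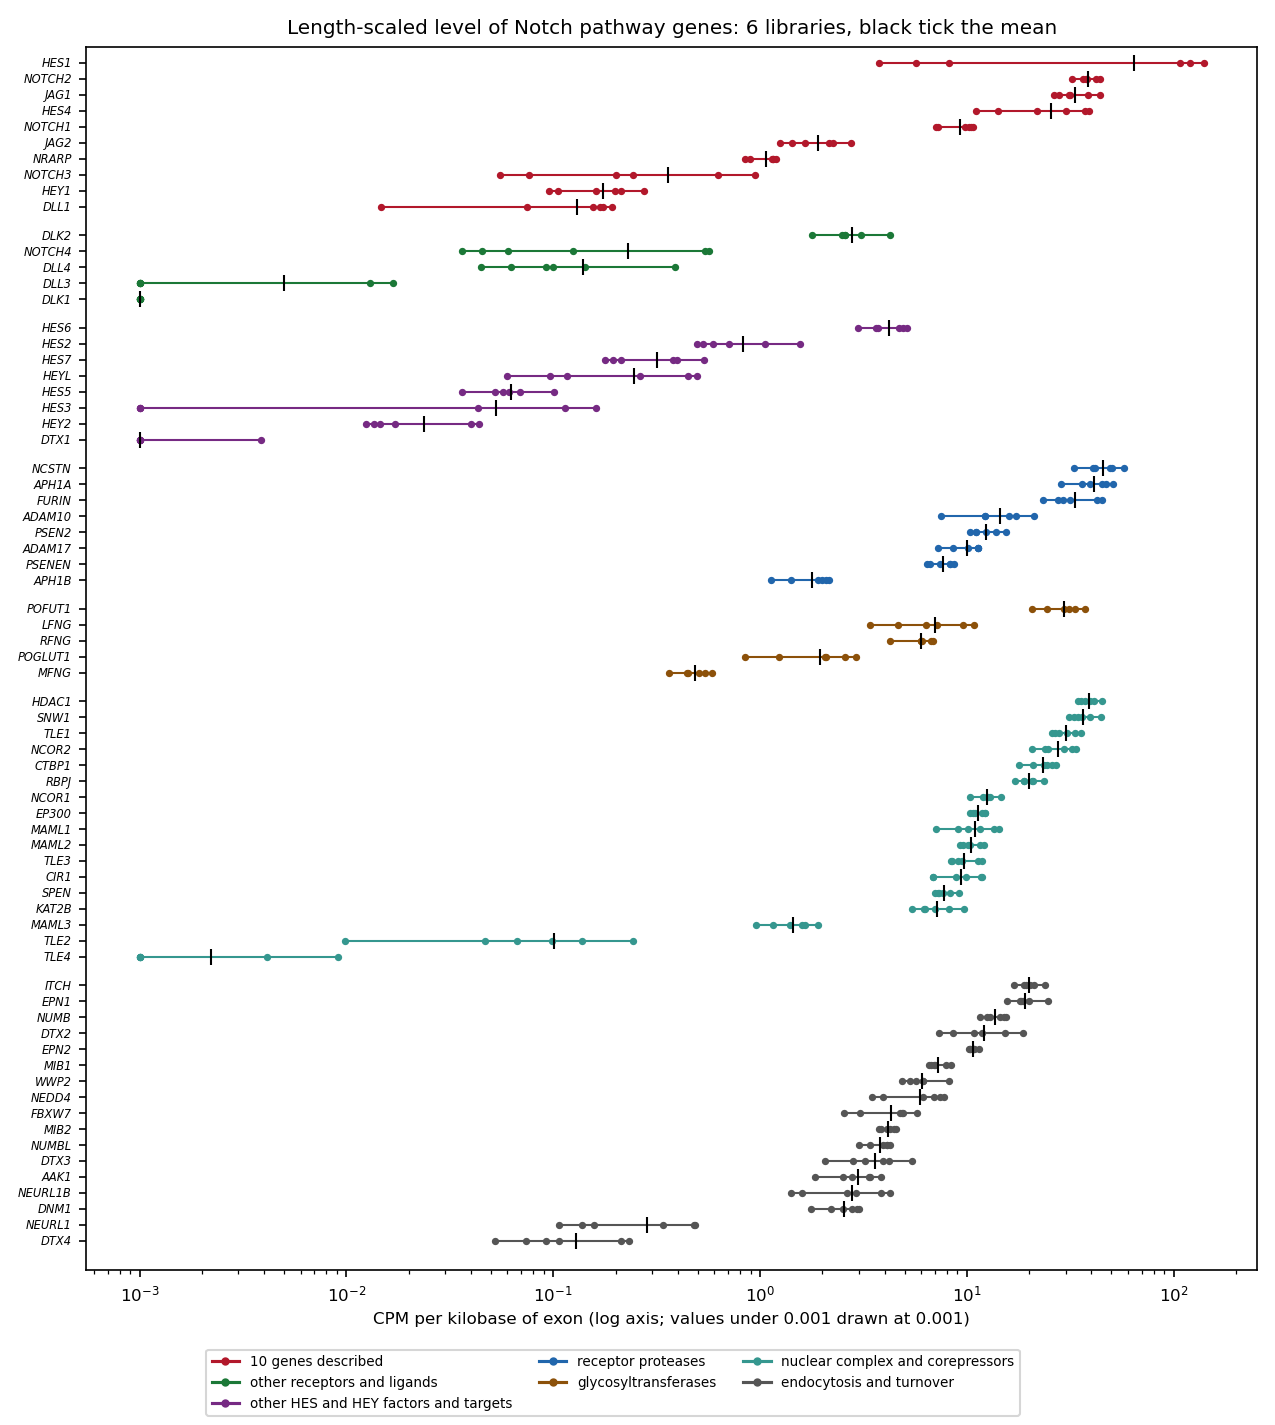
Length-scaled level (CPM per kilobase of exon, log axis, values under 0.001 drawn at 0.001) of the 10 Notch genes and 60 other pathway genes, grouped by role. Each point is 1 of 6 libraries, lines join the lowest and highest, and black ticks are means. NOTCH2 and JAG1 lie near the top with narrow ranges, and HES1 spans from 3.74 to 139.8.

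The 4 contrasts fitted across 15372 genes set the mean of both MIR100HG hairpins against sh-TRC, each hairpin against sh-TRC, and the second hairpin against the first. The first 3 share the control libraries. At an adjusted p at or below 0.05, edgeR's quasi-likelihood test called 0 of the 10 Notch genes and 0% of all genes in each contrast. At an unadjusted p under 0.05, the mean of both hairpins against sh-TRC had 1 of 10 (JAG1), where 7.68% of all genes passed. The contrast of sh-MIR100HG-1 with sh-TRC had 1 of 10 (JAG1), against 6.87%. The contrast of sh-MIR100HG-2 with sh-TRC had 4 of 10 (JAG1, JAG2, HES1 and HES4), against 8.86%. The contrast of the second hairpin with the first had 2 of 10 (HES1 and HES4), against 9.45%. In every case the sign was lower in the group named first. The 10 genes were chosen with earlier results of these data known, so these counts are a description and no test of the set.

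Groups with no overlap of the libraries' CPM were seen for 1, 1, 6 and 4 of the 10 genes in the same order of contrasts, where all genes gave 17.5%, 40.5%, 38.5% and 43.9%. The median log2FC of the 10 genes was -0.53, -0.00, -0.42 and -0.27, beside -0.04, -0.00, -0.04 and -0.01 over all genes. Other tools gave a few calls at an adjusted p at or below 0.05. With edgeR's likelihood ratio test, HES1 was called for sh-MIR100HG-2 against sh-TRC, and HES1 and HES4 for the second hairpin against the first. With DESeq2, HES4 was called in the former contrast, and HES1 and HES4 in the latter. Both tools called 0 of 10 for the mean of both hairpins and for sh-MIR100HG-1 against sh-TRC.

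**Figure D3:**
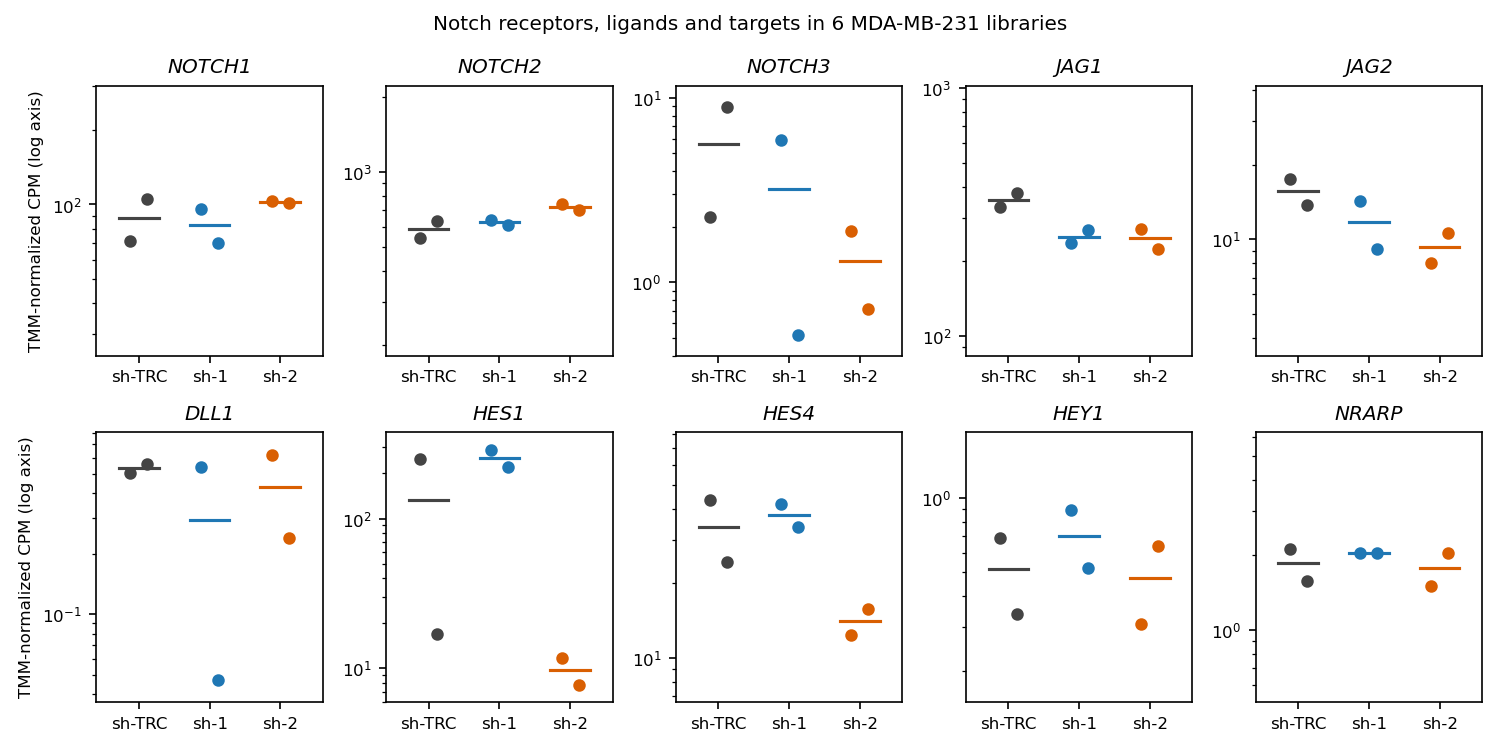
TMM-normalized CPM (log axis, a different range in each panel) of the 10 Notch genes in sh-TRC, sh-MIR100HG-1 (sh-1) and sh-MIR100HG-2 (sh-2). Points are the 2 libraries of each group, replicate 1 on the left, and lines are group means. JAG1 is lower in all 4 knockdown libraries than in both controls, and HES1 is split between CTR1 and CTR2.

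Among the receptors, the values of NOTCH1 and NOTCH2 lay close together in all libraries and those of NOTCH3 did not. NOTCH1 (ENSG00000148400, chromosome 9, 139388896 to 139440314, minus strand, GRCh37) encodes the receptor best known from T cell leukaemia. It was at 71.5 and 106 CPM in the controls, 96.3 and 69.7 with sh-MIR100HG-1, and 104 and 101 with sh-MIR100HG-2. The controls spanned all the sh-MIR100HG-2 values, and the log2FC of the mean of both hairpins was 0.06 ± 0.23 (SE, adjusted p = 0.972, 95% confidence interval -0.47 to 0.58).

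NOTCH2 (ENSG00000134250, chromosome 1, 120454176 to 120612240, minus strand) is the receptor with the most RNA here. It was at 544 and 633 CPM in the controls, 641 and 611 with sh-MIR100HG-1, and 739.8 and 704.5 with sh-MIR100HG-2. Both sh-MIR100HG-2 libraries lay above the other 4. The log2FC of that hairpin against sh-TRC was 0.30 ± 0.20 (SE, adjusted p = 0.674), and against sh-MIR100HG-1 it was 0.21 ± 0.20 (SE, adjusted p = 0.722). NOTCH2 shares sequence with its NOTCH2NL relatives, so how reads were divided among them is uncertain.

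NOTCH3 (ENSG00000074181, chromosome 19, 15269849 to 15311792, minus strand), a receptor known from vascular smooth muscle, was low. It was at 2.27 and 8.90 CPM in the controls, 5.87 and 0.52 with sh-MIR100HG-1, and 1.90 and 0.72 with sh-MIR100HG-2. CTR2 and KD1-1 were the high libraries, while their partner replicates CTR1 and KD1-2 were lower, and all groups but sh-TRC and sh-MIR100HG-2 overlapped. The log2FC was -1.45 ± 0.84 for the mean of both hairpins (SE, adjusted p = 0.720), -0.79 ± 1.0 for sh-MIR100HG-1 (adjusted p = 0.871) and -2.10 ± 1.05 for sh-MIR100HG-2 (adjusted p = 0.599). Without CTR2 the first became -0.15, and without KD1-1 it became -2.76. Without CTR2, the value for sh-MIR100HG-1 turned to 0.50 and that for sh-MIR100HG-2 became -0.80. With no filter on low counts the adjusted p was 0.00887 for the mean of both hairpins and 0.000778 for sh-MIR100HG-2.

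Other genes of low level were also highest in CTR2 and KD1-1. NOTCH4, the fourth receptor, was at 1.21 and 5.51 CPM in the controls, 5.27 and 0.59 with sh-MIR100HG-1, and 0.35 and 0.44 with sh-MIR100HG-2. ESR1 encodes the oestrogen receptor, a protein whose absence is part of the definition of triple-negative cells. ESR1 RNA was at 0.19, 2.38, 2.79, 0.59, 0.15 and 0.12 CPM in the same order. Of 3 hormone receptor and HER2 genes, only ESR1 had CTR2 and KD1-1 as its highest 2 libraries. The summed list was at 119 CPM in CTR2, 100.1 in KD1-1 and 72.2 to 99.3 in the other libraries. ERBB2 made up most of this sum and was highest in CTR2 (116 CPM) and KD2-1 (99.1), with 97.4 in KD1-1.

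Of 5 luminal epithelial genes, 3 had the same highest libraries, namely FOXA1 (1.22 CPM in both, at most 0.16 elsewhere), CDH1 (7.05 and 5.0, at most 2.76 elsewhere) and GATA3 (13.0 and 12.5, at most 11.4 elsewhere). EPCAM and KRT19 did not, and KRT19, at 320 to 713 CPM, made up most of the summed list of 350 to 731. Of 4 fibroblast genes, PDGFRA (2.41 and 3.27 CPM, at most 0.22 elsewhere) and PDGFRB (19.0 and 17.1, at most 11.4 elsewhere) did, while COL1A1 was highest with sh-MIR100HG-2, at 62.6 and 78.0 CPM, and the summed list ran from 32.5 in CTR1 to 86.6 in KD2-2. None of the 3 leukocyte and 2 endothelial genes did, their sums being 163 to 254 and 0.397 to 0.969 CPM. CD68 made up nearly all of the leukocyte sum, with PTPRC at most at 0.69 CPM and CD3E at most at 0.15. Of all genes tested, 3.82% had CTR2 and KD1-1 as their highest 2 libraries. What these genes have to do with the NOTCH3 values was not tested.

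Among the 10 genes, only the ligand JAG1 had all 4 knockdown libraries on the same side of both controls. Of all genes tested, 17.5% did so in either direction. JAG1 (ENSG00000101384, chromosome 20, 10618332 to 10654755, minus strand) encodes Jagged 1, a transmembrane ligand of Notch receptors. It was at 330.5 and 376 CPM in the controls, 237 and 266 with sh-MIR100HG-1, and 270.3 and 225 with sh-MIR100HG-2. The group means were 353 ± 32.4 CPM in sh-TRC, 252 ± 20.5 in sh-MIR100HG-1 and 248 ± 32.2 in sh-MIR100HG-2 (SD, n = 2 each).

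The log2FC of JAG1 was -0.50 ± 0.18 for the mean of both hairpins (SE, 1.42-fold lower, unadjusted p = 0.0216, adjusted p = 0.583). It was -0.49 ± 0.21 for sh-MIR100HG-1 (unadjusted p = 0.0464, adjusted p = 0.716) and -0.51 ± 0.21 for sh-MIR100HG-2 (unadjusted p = 0.0386, adjusted p = 0.545). The hairpins differed from each other by -0.02 ± 0.21, with a 95% confidence interval of -0.50 to 0.45. Leaving out any single library kept the value for the mean of both hairpins between -0.59 and -0.41. By rank of p for the mean of both hairpins, JAG1 was the 569th of 15372 genes. No gene passed the adjustment in edgeR's quasi-likelihood test for that contrast, where the lowest adjusted p was 0.381. An opposite-strand long non-coding RNA gene overlaps 306 bases (3.59%) of the JAG1 exons.

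JAG2 (ENSG00000184916, chromosome 14, 105607318 to 105635161, minus strand), the other Jagged ligand, was at 17.6 and 13.7 CPM in the controls, 14.3 and 9.14 with sh-MIR100HG-1, and 8.0 and 10.6 with sh-MIR100HG-2. KD1-1 lay between the controls, and the other 3 knockdown libraries lay below both. The log2FC was -0.58 ± 0.27 for the mean of both hairpins (SE, adjusted p = 0.665), -0.41 ± 0.32 for sh-MIR100HG-1 (adjusted p = 0.795) and -0.75 ± 0.32 for sh-MIR100HG-2 (unadjusted p = 0.0457, adjusted p = 0.555). A long non-coding RNA gene of the same strand overlaps 469 bases (7.33%) of its exons.

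DLL1 (ENSG00000198719, chromosome 6, 170591294 to 170615653, minus strand), a Delta ligand, was near the floor of detection. It was at 0.50 and 0.56 CPM in the controls, 0.54 and 0.05 with sh-MIR100HG-1, and 0.62 and 0.24 with sh-MIR100HG-2, from 2 to 36 counts. KD1-2 stood apart as the lowest. The log2FC of the mean of both hairpins was -0.55 ± 0.78 (SE, adjusted p = 0.904), with a wide 95% confidence interval of -2.34 to 1.24. This log2FC ran from -1.87 without KD1-1 to -0.15 without KD1-2.

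Of the target genes, HES1 and HES4 differed between the hairpins at an unadjusted p under 0.05, and neither did for the mean of both hairpins against the control. HES1 (ENSG00000114315, chromosome 3, 193853934 to 193856521, plus strand) encodes a basic helix-loop-helix repressor and is the classical Notch target; its promoter with 2 TGGGAA matches is printed above. It was at 248 and 16.9 CPM in the controls, 288 and 220.5 with sh-MIR100HG-1, and 11.7 and 7.71 with sh-MIR100HG-2. CTR1 lay with the sh-MIR100HG-1 libraries and CTR2 near the sh-MIR100HG-2 libraries. The counts behind these values were 13345, 996, 19142, 9338, 529 and 386, so counting error is small beside the spread.

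Between the hairpins, HES1 was 26.3-fold lower with sh-MIR100HG-2 than with sh-MIR100HG-1, a log2FC of -4.72 ± 1.03 (SE, 95% confidence interval -7.08 to -2.35). By edgeR's quasi-likelihood test this had an adjusted p of 0.509, from 0.00164 unadjusted. The adjusted p was 0.00532 by the likelihood ratio test and 0.0432 by DESeq2. In the quasi-likelihood test the spread of the controls enters this contrast too, and without CTR1 or without CTR2 the adjusted p was 0.0149 or 0.0136. Over all settings tried, the adjusted p ran from 8.55e-45 with no filter on low counts to 0.740 without KD1-1, and the log2FC stayed between -5.04 and -4.45.

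Against the control, the value of HES1 depended on which control library was used. The log2FC of the mean of both hairpins was -1.42 ± 0.74 (SE, adjusted p = 0.691), 1.55 without CTR1 and -2.32 without CTR2. For sh-MIR100HG-1 it was 0.94 ± 0.89 (adjusted p = 0.826), 3.91 without CTR1 and 0.03 without CTR2. For sh-MIR100HG-2 it was -3.78 ± 0.99 (unadjusted p = 0.00471, adjusted p = 0.455), -0.81 without CTR1 and -4.68 without CTR2. The sign of the mean thus turned with the control, while each hairpin kept its own sign and changed in size. For sh-MIR100HG-2 against sh-TRC the adjusted p was 0.0184 by the likelihood ratio test, 0.136 by DESeq2 and 0.0215 without CTR2, in a range from 1.4e-30 with no filter to 1 without CTR1.

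HES4 (ENSG00000188290, chromosome 1, 934342 to 935552, minus strand), a relative of HES1 with 1 TGGGAA match in the promoter printed above, was also lowest with sh-MIR100HG-2 and lower in CTR2 than in CTR1. It was at 43.3 and 24.3 CPM in the controls, 41.8 and 33.7 with sh-MIR100HG-1, and 12.4 and 15.8 with sh-MIR100HG-2. Both sh-MIR100HG-2 libraries lay below the other 4. The log2FC of sh-MIR100HG-2 was -1.26 ± 0.32 against sh-TRC (SE, unadjusted p = 0.0039, adjusted p = 0.455). Without CTR1 it was -0.79, and without CTR2 it was -1.62. DESeq2 gave an adjusted p of 0.045 for it and the likelihood ratio test 0.0553.

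Between the hairpins, HES4 differed by -1.42 ± 0.32 (SE, 2.68-fold lower with sh-MIR100HG-2, unadjusted p = 0.00199, adjusted p = 0.509). The adjusted p was 0.027 by the likelihood ratio test and 0.0218 by DESeq2. It ran from 0.000461 with no filter to 0.740 without KD1-1 over the settings tried. With sh-MIR100HG-1 against sh-TRC, HES4 had a log2FC of 0.16 ± 0.31 (adjusted p = 0.921), which was -0.20 without CTR2 and -0.01 without KD1-1, and for the mean of both hairpins -0.55 ± 0.27 (adjusted p = 0.676), which ran from -0.91 without CTR2 to -0.08 without CTR1.

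The other targets were low and their groups overlapped. HEY1 (ENSG00000164683), a hairy-related repressor, was at 0.69 and 0.34 CPM in the controls, 0.89 and 0.52 with sh-MIR100HG-1, and 0.31 and 0.64 with sh-MIR100HG-2. NRARP (ENSG00000198435, chromosome 9, 140194934 to 140196703, minus strand), a small ankyrin protein that restrains Notch signalling, was at 2.12 and 1.58 CPM in the controls, 2.03 and 2.03 with sh-MIR100HG-1, and 1.5 and 2.04 with sh-MIR100HG-2. The log2FC of the mean of both hairpins was 0.18 ± 0.57 for HEY1 (SE, 95% confidence interval -1.12 to 1.48) and 0.04 ± 0.37 for NRARP (-0.81 to 0.88). The targets did not share 1 pattern over the libraries.

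**Figure D4:**
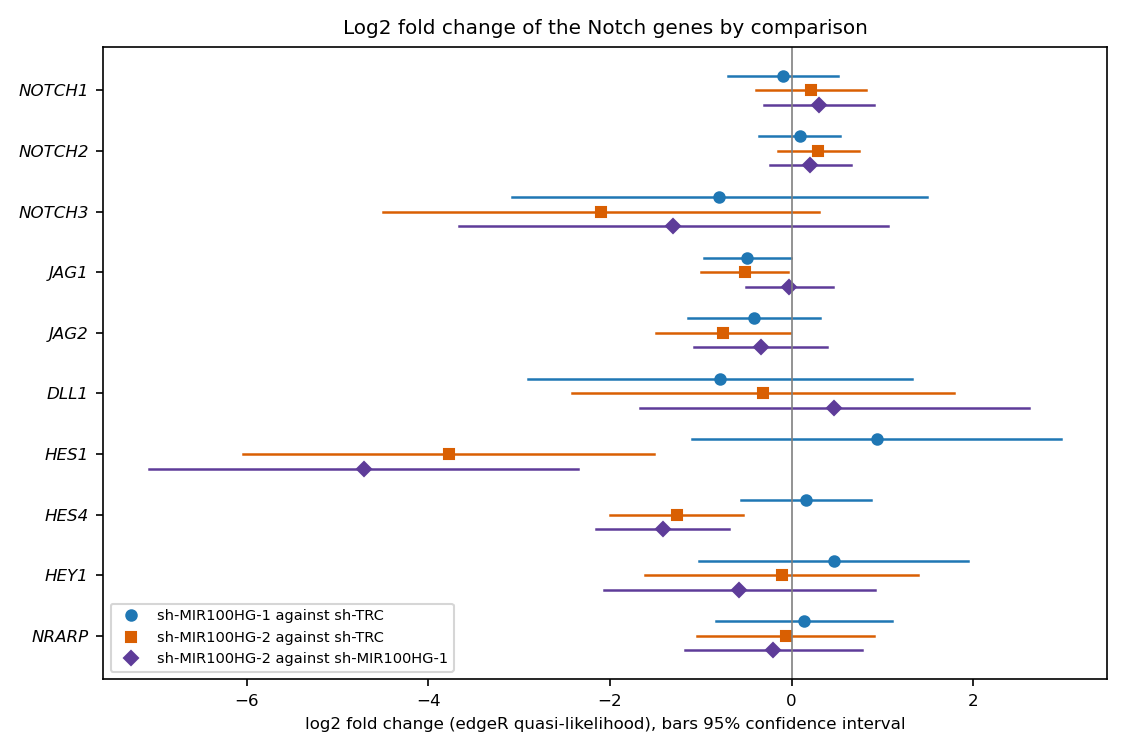
Log2 fold change of the 10 Notch genes (points) with 95% confidence intervals that are not adjusted for the number of genes (bars), for each hairpin against sh-TRC and for the second hairpin against the first. JAG1 lies near -0.5 for both hairpins, and HES1 and HES4 lie below 0 for sh-MIR100HG-2 and above 0, with intervals that include 0, for sh-MIR100HG-1.

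The genes most like HES1 over the 6 libraries were named by the root mean square difference of log2 CPM, each gene centred on its own mean. The search took in 4676 genes whose mean log2 CPM was within 1 of the level of HES1. The nearest were EGR1 at 0.70, FOS at 0.91 and CCNL1 at 0.92. EGR1, an immediate early transcription factor, was at 451 and 39.3 CPM in the controls, 281 and 174 with sh-MIR100HG-1, and 22.0 and 25.1 with sh-MIR100HG-2. FOS, another immediate early factor, was at 182, 3.06, 252, 243, 4.23 and 6.83 CPM in the same order. CCNL1, which encodes cyclin L1, was at 137, 20.9, 138, 144, 20.0 and 21.5 CPM.

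These 3 genes were chosen for their likeness to HES1. That they were high in CTR1 and the sh-MIR100HG-1 libraries and low in the other 3 follows from that choice. Of the Notch genes, HES4 was nearest to HES1, at 1.63, and the other 8 lay at 1.97 to 2.69. The likeness is over 6 points that share their libraries and is a description. Whether what set EGR1 and FOS apart between these libraries also bears on HES1 was not tested.

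**Figure D5:**
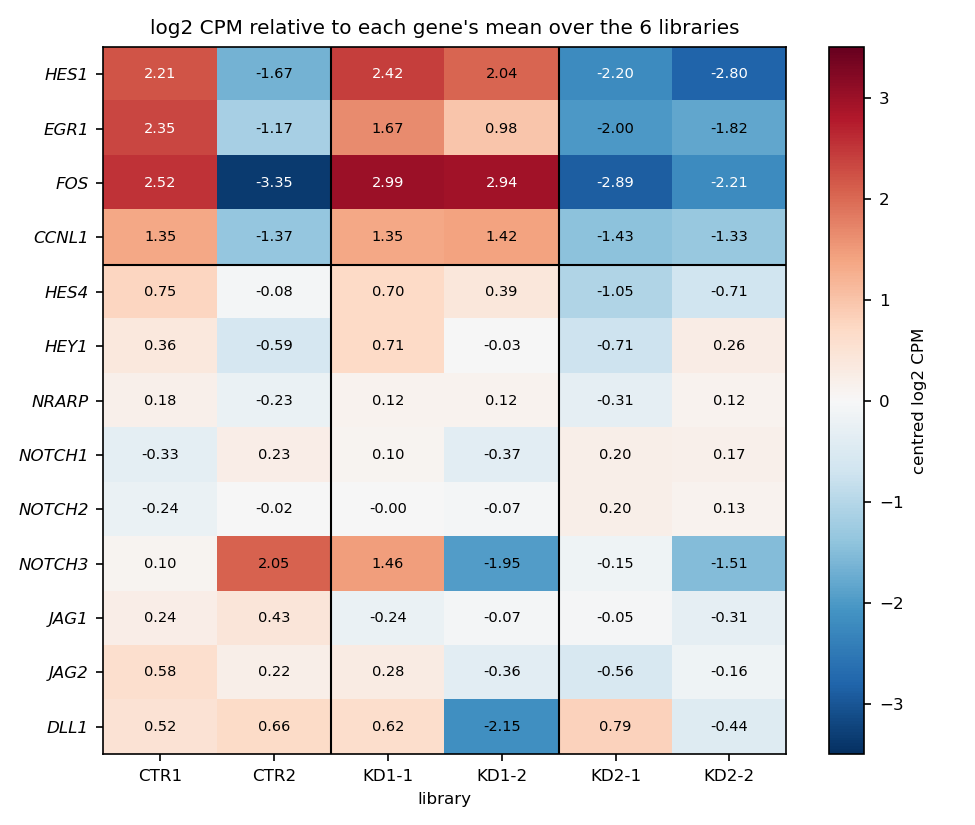
Log2 CPM of each gene minus its mean over the 6 libraries, as colour and number, for HES1 with EGR1, FOS and CCNL1 (above the line) and the other 9 Notch genes (below it). HES1 and the 3 genes are above their means in CTR1, KD1-1 and KD1-2 and below them in CTR2, KD2-1 and KD2-2, and NOTCH3 is highest in CTR2 and KD1-1.

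The rest of the pathway was read from a list of 61 genes, of which 54 passed the filter on low counts. None passed an adjusted p of 0.05 with edgeR's quasi-likelihood test in any contrast, where 0% of all genes did. At an unadjusted p under 0.05, 3 were higher and 4 lower for the mean of both hairpins against sh-TRC. The count was 3 higher and 2 lower for sh-MIR100HG-1, 7 higher and 5 lower for sh-MIR100HG-2, and 4 higher and 2 lower for the second hairpin against the first. These were 7, 5, 12 and 6 of 54 genes, where 7.68%, 6.87%, 8.86% and 9.45% of all genes passed. Over all 15372 genes the split was 497 higher and 683 lower, 476 and 580, 570 and 792, and 513 and 940. All 4 knockdown libraries lay on the same side of both controls for 15 of the 54 genes, where 17.5% of all genes did so. The median log2FC of the 54 genes was -0.01, -0.02, 0.05 and 0.05. The likelihood ratio test called HEYL and DESeq2 called HES2, HEYL and FBXW7 for the mean of both hairpins.

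Among other HES and HEY factors, HES2 and HEYL were lower in all 4 knockdown libraries than in both controls. HES2 was at 5.72 and 8.46 CPM in the controls, 3.81 and 3.19 with sh-MIR100HG-1, and 2.67 and 2.88 with sh-MIR100HG-2, with a log2FC of -1.19 ± 0.29 for the mean of both hairpins (SE, unadjusted p = 0.00341, adjusted p = 0.447). HEYL, a HEY relative, was at 1.81, 1.65, 0.96, 0.43, 0.35 and 0.22 CPM in the same order, with a log2FC of -1.94 ± 0.48 (SE, unadjusted p = 0.00323, adjusted p = 0.447). DESeq2 gave adjusted p values of 0.0248 for HES2 and 0.0444 for HEYL. In the list of other HES and HEY factors and targets, HES6 was the most abundant, at a mean of 4.18 CPM per kilobase. The Deltex gene DTX1 was the least abundant, at 0.000646.

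Among other receptors and ligands, NOTCH4, DLL4 and DLK2 had an unadjusted p under 0.05 in some contrast. NOTCH4, whose values stand beside NOTCH3 above, had a log2FC of -3.08 ± 1.06 for sh-MIR100HG-2 against sh-TRC (SE, adjusted p = 0.515), which ran from -3.79 without CTR1 to -1.60 without CTR2. DLL4, a Delta ligand of endothelium, was at 0.30 and 0.48 CPM in the controls, 0.44 and 0.21 with sh-MIR100HG-1, and 1.85 and 0.68 with sh-MIR100HG-2, with a log2FC of 1.70 ± 0.69 for the same contrast (SE, adjusted p = 0.545), which ran from 0.81 without KD2-1 to 2.24 without KD2-2. DLK2, a Delta-like protein, was at 6.85, 9.52, 5.56, 3.99, 5.73 and 5.73 CPM, with a log2FC of -0.64 ± 0.28 for the mean of both hairpins (SE, adjusted p = 0.645). DLK2 was the most abundant of this group, at a mean of 2.79 CPM per kilobase, and DLK1 had no counts in any library.

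Among 9 genes of receptor cleavage, ADAM17, FURIN and ADAM10 had an unadjusted p under 0.05 in some contrast. ADAM17, a protease that can cut Notch receptors at the surface, was at 47.0 and 39.9 CPM in the controls, 62.3 and 62.2 with sh-MIR100HG-1, and 62.2 and 55.8 with sh-MIR100HG-2, with a log2FC of 0.48 ± 0.19 for the mean of both hairpins (SE, adjusted p = 0.622). All 4 knockdown libraries lay above both controls. FURIN, which processes the receptor precursor, was at 110.5, 139, 149, 130.4, 200.5 and 212 CPM, and its log2FC was 0.73 ± 0.22 for sh-MIR100HG-2 against sh-TRC (SE, adjusted p = 0.498).

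ADAM10, the main protease for ligand-bound receptors, was at 343 and 198 CPM in the controls, 281 and 259.8 with sh-MIR100HG-1, and 198 and 121 with sh-MIR100HG-2. Its log2FC for sh-MIR100HG-2 against sh-TRC was -0.76 ± 0.32 (SE, adjusted p = 0.555), and the control CTR2 lay at the level of KD2-1. NCSTN, a gamma-secretase subunit, was the most abundant of these genes, at a mean of 45.5 CPM per kilobase, and APH1B the least, at 1.78. Of the 5 glycosyltransferases that modify the receptors, none had an unadjusted p under 0.05 in any of the 4 contrasts, and they ran from MFNG at a mean of 0.482 CPM per kilobase to POFUT1 at 29.4.

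Among 17 genes of the nuclear complex and its corepressors, RBPJ itself was at 174 and 159 CPM in the controls, 174 and 219 with sh-MIR100HG-1, and 192.5 and 190.4 with sh-MIR100HG-2. MAML1, a Mastermind coactivator, was at 75.5, 108, 97.2, 123, 144 and 153 CPM in the same order, with a log2FC of 0.69 ± 0.25 for sh-MIR100HG-2 against sh-TRC (SE, adjusted p = 0.526). KAT2B, an acetyltransferase, had a log2FC of 0.61 ± 0.22 for sh-MIR100HG-1 against sh-TRC (SE, adjusted p = 0.714). TLE2, a Groucho corepressor with less than 1 CPM in all libraries, had -1.78 ± 0.72 for the mean of both hairpins (SE, adjusted p = 0.642), which ran from -2.96 without KD2-1 to -1.31 without CTR2. HDAC1 was the most abundant of this group, at a mean of 38.9 CPM per kilobase, and TLE4 the least, at 0.00221.

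Among 17 genes of endocytosis and turnover, FBXW7 had the lowest p. FBXW7, the ubiquitin ligase subunit that marks the Notch intracellular domain for degradation, was at 31.4 and 26.2 CPM in the controls, 49.1 and 58.9 with sh-MIR100HG-1, and 50.2 and 50.4 with sh-MIR100HG-2. All 4 knockdown libraries lay above both controls, with a log2FC of 0.86 ± 0.20 for the mean of both hairpins (SE, 1.81-fold higher, unadjusted p = 0.00235, adjusted p = 0.446, and 0.013 by DESeq2). The hairpins differed by -0.10 ± 0.22, with a 95% confidence interval of -0.61 to 0.40. The Deltex genes, ubiquitin ligases of receptor trafficking, went different ways: for sh-MIR100HG-2 against sh-TRC the log2FC was 0.91 ± 0.28 for DTX2, -0.82 ± 0.32 for DTX3 and 1.17 ± 0.51 for DTX4 (SE), with adjusted p of 0.498, 0.545 and 0.561. ITCH was the most abundant of this group, at a mean of 20.03 CPM per kilobase, and DTX4 the least, at 0.128.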

How the data were processed

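RNA-seq was measured in 6 libraries of MDA-MB-231 cells, 2 biological replicates for each of 3 groups. The authors deposited raw counts per gene: reads were trimmed, mapped to GRCh37 with STAR (2.5.2a per the submitters' processing notes, while the methods name an earlier version) and assigned to GENCODE exons with FeatureCounts. Strandedness and the treatment of multi-mapped reads are not given in the sources used here, so overlapping and paralogous genes are uncertain.

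Genes with fewer than 5 counts in at least 3 of 6 libraries were removed, as in the methods (12373 of 27745), and 15372 were tested. TMM normalization and edgeR 4.0.16 (R 4.3.3; glmQLFit and glmQLFTest) fitted all 6 libraries together with 3 residual degrees of freedom, and p values were adjusted by Benjamini-Hochberg over all genes tested. Where an adjusted p is given with no tool, it is from this test. The study's methods name a quasi-likelihood method of edgeR together with the function glmLRT, which runs the likelihood ratio test, so which was used is ambiguous. The likelihood ratio test was run as an alternative, as was DESeq2 1.42.0. The common biological coefficient of variation was 27.8%. CPM per kilobase used the exon lengths in the table. Scripts were tested on simulated counts.

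The Notch genes and the pathway lists were chosen with earlier results of these data known. Pathway genes were named where an unadjusted p was under 0.05 in any contrast, or where they were the most or least abundant per length of their list; RBPJ was added after its values were seen. The values of 1 pathway gene are not reported here, though the list counts include it. Genes beside NOTCH3 were chosen from the marker lists after their values were seen. Alternatives were DESeq2 size factors, no filter, the likelihood ratio test, DESeq2, a fold threshold, each library left out, and a replicate block. Same-numbered replicates of different groups had correlations of deviations of -0.21, 0.01 and 0.44, so the numbers were not taken to pair the samples.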

Additional observations from a re-analysis of the deposited data

Results flagged for a closer look

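HES1 and HES4 differed between the hairpins by a test of the difference itself at an unadjusted p under 0.05 and not after adjustment. With sh-MIR100HG-2 relative to sh-MIR100HG-1, the log2FC was -4.72 for HES1 and -1.42 for HES4, with unadjusted p of 0.00164 and 0.00199 and an adjusted p of 0.509 for both by edgeR's quasi-likelihood test. Both libraries of sh-MIR100HG-2 were below both of sh-MIR100HG-1, as for 43.9% of all genes in either direction. For HES1 the controls lay on both sides, with CTR1 at 248 CPM and CTR2 at 16.9.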

How the results depend on the processing

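At an adjusted p at or below 0.05, edgeR's quasi-likelihood test called 0 genes in all 4 contrasts, as it did with DESeq2 size factors and with the added log2FC threshold. For the mean of both hairpins against sh-TRC, 392 genes were called with no filter on low counts, 109 by the likelihood ratio test and 130 by DESeq2. For sh-MIR100HG-1 against sh-TRC the counts were 227, 34 and 66, for sh-MIR100HG-2 against sh-TRC 517, 121 and 167, and for the second hairpin against the first 679, 91 and 103. The cause was not tested. With each library left out in turn, 0 genes were called in the first contrast, 0 to 3 in the second (3 without CTR1), 0 to 4 in the third (4 without CTR2) and 0 to 7 in the fourth (6 without CTR1, 7 without CTR2); the lone sample was taken to vary like the other groups.

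Of the 10 Notch genes, the number at an unadjusted p under 0.05 in the first contrast was 5 with no filter and 2 by the likelihood ratio test, against 1. It was 0 in the second with size factors and by the likelihood ratio test, and 2 in the third with size factors, against 4. At an adjusted p at or below 0.05, no filter gave 2 (HES1 and NOTCH3), 0, 3 (HES1, HES4 and NOTCH3) and 2 (HES1 and HES4). Leaving out a library gave, at the unadjusted p, 1 to 3, 0 to 2, 2 to 4 and 2 to 3.

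Outside the left-out libraries, the settings kept the sign of every log2FC of a named gene that was recomputed (286 of 320 also on the same side of the threshold and 34 newly past it). Leaving out a library turned 21 signs. For the mean of both hairpins the ranges were -0.20 to 0.37 for NOTCH1 (-0.07 without KD1-1), -2.32 to 1.55 for HES1, -0.25 to 0.77 for HEY1 (-0.05 without KD1-1, -0.14 without KD2-2) and -0.16 to 0.26 for NRARP (-0.09 without KD2-2). For sh-MIR100HG-1 they were -3.42 to 0.50 for NOTCH3 (0.06 without KD1-2) and -0.20 to 0.63 for HES4 (-0.01 without KD1-1). Between the hairpins they were -2.16 to 1.32 for NOTCH3, -0.16 to 0.10 for JAG1, -0.61 to 0.023 for JAG2, -0.36 to 3.11 for DLL1, -0.44 to 0.004 for NRARP and -0.45 to 0.23 for MIR100HG. The receptor share difference ranged from -2.90 to 0.61 percentage points for NOTCH1, -0.49 to 4.34 for NOTCH2 and -1.44 to -0.12 for NOTCH3.

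With the replicate number as a block, 0 genes were called in each of the 4 contrasts. The samples share only a number, and the block changed no call of a Notch gene. The spread was estimated from 2 libraries per group, and DLL1, with 2 to 36 counts, was not resolved.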
